A study of Mus musculus with 4 samples.

Results

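Immediate early genes are transcribed within minutes of a stimulus, without new protein synthesis, and 10 of them were followed here among the 15093 genes of the single-cell table. They are the AP-1 subunits Jun, Junb, Jund, Fos and Fosb, the transcription factors and nuclear proteins Egr1 and Ier2, the feedback regulators Dusp1 and Zfp36, and the activation antigen Cd69. All 10 were in the table and were chosen by name, with no measured value in the rule but with earlier results of these data known. Peripheral blood mononuclear cells came from 4 female wild-type C57BL/6 mice aged 3.2 ± 0.3 months. In 2 of them, Maus3_2 and Maus6, the left ear was exposed for 10 min to non-thermal plasma (NTP), a partly ionised argon gas that delivers reactive oxygen and nitrogen species. The untreated mice Maus2_2 and Maus4_2 were anaesthetised only, and all 4 mice had received ketamine and xylazine. Blood was drawn from the vena cava 120 min after irradiation in treated mice but 120 min after the start of anaesthesia in untreated mice, so the time since anaesthesia began was longer in treated mice and cannot be told apart from the treatment.

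AP-1 is a family of dimers that bind DNA through a basic leucine zipper. Jun proteins pair with one another or with Fos proteins, whereas Fos proteins need a Jun partner. Their genes are switched on through MAP kinases, serum response factor and CREB, and the short-lived transcripts carry AU-rich elements that recruit decay factors. Some of the genes followed here act as brakes on this response, since Dusp1 encodes a phosphatase that inactivates MAP kinases and Zfp36 encodes tristetraprolin, which binds AUUUA repeats and speeds the decay of such transcripts. In lymphocytes the same genes respond to antigen receptor signals, but they also respond to tissue handling and to warming of isolated cells.

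Together the 4 libraries held 23692981 UMIs (unique molecular identifiers, each counting a captured RNA molecule once) in 5794 cells, of which 25326 belonged to the 10 genes. Per mouse there were 4653719 to 7093148 UMIs in 993 to 1705 cells, and the median per cell was 4481 and 3655 UMIs in treated Maus3_2 and Maus6 and 4465 and 3105 UMIs in untreated Maus2_2 and Maus4_2. Only 4 cell barcodes occurred in more than 1 library. Cells carried the authors' labels, 5 cell types and 12 clusters, and 2 labels went against some of their markers. Of the 73 cells labelled NK cells, 98.6% had a UMI of Cd3d and 63.0% of Cd8a, both T cell genes, and 97.3% had one of Nkg7, a gene of cytotoxic cells, and 76.7% one of the NK cell receptor gene Klrd1, which 68.0% of CD8+ T cells also had, whereas the NK cell receptor genes Ncr1 and Klrb1c had 1 UMI each. Of the 474 cells labelled plasmablasts, 89.5% had a UMI of Ms4a1, which plasma cells lose, Jchain had none, and the share with Mzb1 was 41.8%. Both labels are used below only as names of those cells. Markers of other blood cells were scarce but unequal. The 5 red blood cell genes summed to 71.9 and 12.5 CPM (counts in 1000000 UMIs) in treated Maus3_2 and Maus6 against 235 and 6.10 in untreated Maus2_2 and Maus4_2, the 5 monocyte genes to 12.1 and 12.4 against 4.298 and 43.3, and the 5 platelet genes to 22.6 and 10.0 against 10.5 and 7.44. The 2 of 5 neutrophil genes in the table summed to 1.27 and 19.998 against 0.645 and 0.953, from 9 and 134 against 3 and 5 UMIs. All 134 UMIs of Maus6 lay in cells labelled B cells. The 4 of 5 dendritic cell genes summed to 8.60 and 10.1 against 6.23 and 7.63, from 61 and 68 against 29 and 40 UMIs. Both sums were higher in both treated mice, but the neutrophil sum rests on few molecules in 3 of the 4 mice. Cd14, Siglech, Cd209a, S100a8, Gp9, Gp1bb, Hba-a1, Hba-a2 and Hbb-bt were at 0 in at least 1 mouse, and the part of these cells in the results below was not tested.

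By span 9 of the genes are shorter than the median gene of the table (21670.5 bases), at 1522 to 8112 bases, and Dusp1 is longer at 56539. That Dusp1 span runs from a GENCODE gene start 53656 bases upstream of the RefSeq start, and the Dusp1 transcript read here has 1990 bases. In GENCODE vM21 on GRCm38, the build of the deposited counts, Jun, Junb, Jund and Ier2 have a single exon, Zfp36 and Egr1 have 2, Fos, Fosb and Dusp1 have 4 and Cd69 has 5, while the median gene of the table has 9. Jun lies at chr4:95049034-95052222 (minus strand), Junb at chr8:84974484-84978718 (minus), Jund at chr8:70698949-70700616 (plus), Ier2 at chr8:84661331-84662852 (minus), Fos at chr12:85473890-85477273 (plus), Fosb at chr7:19302696-19310051 (minus), Zfp36 at chr7:28376784-28380253 (minus), Dusp1 at chr17:26505590-26562128 (minus) and Cd69 at chr6:129267325-129275436 (minus). Zfp36 exons overlap exons of Gm44710 on the opposite strand, and the sources used here do not say whether the counting used strand, so Zfp36 values are uncertain to that extent.

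The start regions of 3 genes are shown because they hold letters that match response elements through which this class of genes is known to be induced. They are RefSeq promoters (GRCm38.p6), 250 bases before and 50 bases from the transcription start, with matches to 7 searched motifs in capitals: the cyclic AMP response element TGACGTCA, its shorter form TGACG, the AP-1 site TGANTCA, the CArG box bound by serum response factor, the GC box GGGCGG, the CCAAT box and the TATAA box, each searched on both strands. Fos lies at chr12:85473640-85473939 (plus strand), Dusp1 at chr17:26508423-26508722 (minus) and Zfp36 at chr7:28379179-28379478 (minus).
Fos: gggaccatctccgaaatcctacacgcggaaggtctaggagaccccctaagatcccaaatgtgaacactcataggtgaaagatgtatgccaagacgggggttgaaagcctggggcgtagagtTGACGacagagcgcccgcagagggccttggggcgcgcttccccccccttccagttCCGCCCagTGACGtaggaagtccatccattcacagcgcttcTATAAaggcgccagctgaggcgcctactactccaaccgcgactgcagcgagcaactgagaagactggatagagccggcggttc
Dusp1: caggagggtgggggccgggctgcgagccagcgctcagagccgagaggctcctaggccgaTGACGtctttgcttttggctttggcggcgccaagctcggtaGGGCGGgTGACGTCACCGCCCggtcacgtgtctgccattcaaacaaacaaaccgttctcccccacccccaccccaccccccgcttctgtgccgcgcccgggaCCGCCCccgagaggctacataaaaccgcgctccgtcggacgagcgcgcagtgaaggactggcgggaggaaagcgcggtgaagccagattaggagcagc
Zfp36: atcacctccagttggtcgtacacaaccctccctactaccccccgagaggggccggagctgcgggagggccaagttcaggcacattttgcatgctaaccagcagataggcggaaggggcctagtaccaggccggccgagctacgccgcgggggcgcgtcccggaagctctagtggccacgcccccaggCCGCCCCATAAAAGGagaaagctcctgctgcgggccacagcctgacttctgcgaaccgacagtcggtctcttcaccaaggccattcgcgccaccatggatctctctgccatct
With the start base numbered 0, Dusp1 held a full TGACGTCA at -143 to -136, flanked by a GC box on either side, and a further TGACG at -191. Zfp36 held a CArG box, CCATAAAAGG, at -58 to -49, which shares 1 base with a GC box. Fos held TGACG at -129 and at -66 and a TATAA at -33. Of 32851 RefSeq promoters of the same length, 1.79% held TGACGTCA, 1.63% a CArG box, 20.8% TGACG (which lies within TGACGTCA), 35.7% a GC box, 37.4% a CCAAT box and 24.9% a TATAA box. The AP-1 letters TGANTCA were in 7.81% of promoters and in none of the 7 read here, which besides these 3 were those of Jun, Junb, Jund and Fosb. Jun held a GC box at -89 and a CCAAT box at -65, but neither TGACG nor a CArG box. Only exact letters were searched, so TGACATCA in the Jun window, which differs from TGACGTCA by 1 base, was not counted. Among the 7 windows a CArG box was found in Zfp36 alone and a full TGACGTCA in Dusp1 alone. Bases outside the windows were not searched, so a gene without a match here can hold one further away. Junb held TGACG at -106, Fosb at -60, and Jund none of the 7 motifs in its window. The RefSeq start of Jund is 1210 bases upstream of the GENCODE gene start given above, so that window does not cover the latter. The RefSeq starts of Zfp36 and Dusp1 are 1025 and 53656 bases downstream of the GENCODE gene starts, and those of the other 4 are within 30 bases. A match of letters is a description and not evidence of binding.

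The 3' untranslated regions are shown for the same reason at their other end, because ATTTA in DNA is the AUUUA to which tristetraprolin binds. Each run of 25 bases starts 4 bases before the first ATTTA of the stretch with the most copies, with ATTTA in capitals and coordinates in GRCm38.
Fos, chr12:85477107-85477131 (plus): ttcaATTTATTTAttaagatggatt
Dusp1, chr17:26506155-26506179 (minus): ccttATTTATTTAacacccccctca
Zfp36, chr7:28376962-28376986 (minus): ctttATTTAtgacgactttATTTAt
Jun, chr4:95049213-95049237 (minus): gatcATTTAtaatcataggaaagat
Junb, chr8:84977123-84977147 (minus): gtgtATTTAacagggaggggagaag
Jund, chr8:70700367-70700391 (plus): ccctATTTAtgtttctactcgggaa
Fos, Dusp1 and Zfp36 each had a pair of ATTTA within the stretch, overlapping in Fos and Dusp1. Over the whole 3' untranslated region Dusp1 and Fos held 4 ATTTA each, or 5.80 and 4.91 per kilobase, Junb held 2 (4.12 per kilobase), Zfp36 3 (3.88), Jun 4 (3.24), Cd69 2 (2.14), Jund 1 (1.88), Egr1 2 (1.64), Fosb 1 (0.466) and Ier2 0. Of 12177 genes with such a region, 67.5% held at least 1, and the median density was 1.28 per kilobase. Dusp1 stood at the 95.2 percentile of that density and Jund at the 62.6 percentile.

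The 10 genes differed widely in how many cells showed them. Jund was detected in 78.4% of all cells and Junb in 42.1%. Cd69 was detected in 23.1%, Ier2 in 21.9%, Zfp36 in 17.7%, Jun in 17.2% and Dusp1 in 12.6%. Fos was detected in 2.64% of cells (206 UMIs), Egr1 in 1.19% (116 UMIs) and Fosb in 0.345% (30 UMIs), so values of these 3 genes rest on few molecules. The levels below are CPM, the UMIs of a gene in 1000000 UMIs of the same cell type in 1 mouse, given as mean ± SD over 4 mice. They compare a gene between cells and not genes with one another. CD4+ and CD8+ T cells are called CD4+ cells and CD8+ cells. In such sums, fewer expressing cells and less RNA per cell cannot be told apart. Levels are shares of UMIs, and the types differed in UMIs per cell. Over mice the median was 2652 to 4033 in B cells, 3500 to 5179 in CD4+ cells and 4761 to 6564.5 in CD8+ cells, in that order within every mouse. A higher level is thus not a higher count per cell, and the part of this in the order of types was not tested. Among B cell genes, Ighm reached 4.66% to 7.08% of its B cell level in CD4+ and CD8+ T cells of the 4 mice, where its UMIs were found in 23.0% and 21.6% of cells at 2000 UMIs per cell. Cd79a reached 0% to 0.453% and Igkc, the most abundant of the 3 in B cells, 0% to 0.155%. These genes were thus not found in T cells at 1 ratio, and Ighm is not used as a measure of free RNA.

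Among the Jun family, Jun and Junb were higher in T cells and Jund in B cells. Jun, the founding subunit of AP-1, stood at 84.8 ± 20.5 CPM in CD8+ cells, 79.2 ± 20.5 in CD4+ cells, 63.4 ± 11.7 in plasmablasts, 54.2 ± 28.7 in cells labelled NK cells and 44.0 ± 10.7 in B cells. No neighbours in that order were separated, but all 4 CD4+ T cell values (63.8 to 108) lay above all 4 B cell values (30.3 to 55.8). Junb, a subunit that can hold back Jun activity, was at 251.1 ± 10.1 in CD4+ cells, 244 ± 58.9 in cells labelled NK cells, 214 ± 37.0 in CD8+ cells, 146 ± 19.4 in plasmablasts and 139 ± 14.9 in B cells. The step from CD8+ cells to plasmablasts was the one without overlap. Jund, the subunit present in resting cells, ran the other way, with 687 ± 79.5 in plasmablasts and 666 ± 49.2 in B cells, then 448 ± 50.2 in CD4+ cells, 369 ± 93.3 in CD8+ cells and 310 ± 75.6 in cells labelled NK cells. Every mouse had a higher Jund level in CPM in B cells than in CD4+ cells, and the B cell range of 626 to 735 did not touch the CD4+ range of 415 to 521.

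The feedback regulators also went in opposite directions. Dusp1 was highest in CD4+ cells at 58.6 ± 8.01 CPM, followed by CD8+ cells at 47.7 ± 1.63, cells labelled NK cells at 39.9 ± 24.1, B cells at 22.7 ± 5.198 and plasmablasts at 17.3 ± 5.80. Its CD4+ values (51.8 to 70.1) and CD8+ values (45.9 to 49.4) did not overlap. Zfp36 was at 71.0 ± 9.36 in B cells and 63.7 ± 6.46 in plasmablasts, against 36.5 ± 8.76 in CD4+ cells, 23.4 ± 15.5 in cells labelled NK cells and 22.7 ± 3.43 in CD8+ cells. The lowest plasmablast value, 54.2, was above the highest CD4+ value, 45.9. Zfp36 in T cells was 24.2% to 62.2% of its B cell level and Jund 40.7% to 70.9%, each above the percentages given for Ighm, Cd79a and Igkc.

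Cd69, a surface antigen that holds lymphocytes in tissue by removing the sphingosine 1-phosphate receptor, was at 204 ± 95.9 CPM in cells labelled NK cells, 131 ± 27.1 in CD8+ cells, 92.2 ± 20.7 in CD4+ cells, 73.8 ± 13.6 in B cells and 46.1 ± 9.50 in plasmablasts, and the last step had no overlap. Ier2, a small nuclear protein, went from 84.2 ± 36.3 in cells labelled NK cells through 80.9 ± 12.5 in CD8+ cells, 74.0 ± 8.77 in CD4+ cells and 62.0 ± 6.91 in B cells to 51.1 ± 12.0 in plasmablasts, with overlap at every step.

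The scarce genes could be ordered only in part. Fos was at 12.2 ± 4.54 in CD8+ cells, 9.07 ± 0.967 in B cells, 8.39 ± 9.41 in plasmablasts and 7.13 ± 4.38 in CD4+ cells. Egr1, a zinc finger factor induced by antigen receptor signals, was at 10.3 ± 7.47 in plasmablasts, 6.31 ± 3.65 in B cells, 3.09 ± 0.638 in CD4+ cells and 0.9695 ± 1.297 in CD8+ cells. Fosb was at 2.30 ± 0.447 in B cells, and its other UMIs were 2 in plasmablasts, 2 in CD8+ cells and 1 in CD4+ cells. In cells labelled NK cells, Fos, Fosb and Egr1 had no UMI in any mouse, which allows 18.9 to 34.1 CPM at 3 UMIs per mouse. These floors are above the mean levels of the 3 genes in the other types, so a lower level could not be told within 1 mouse at this depth. The plot of levels by cell type shows each mouse.

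**Figure D1:**
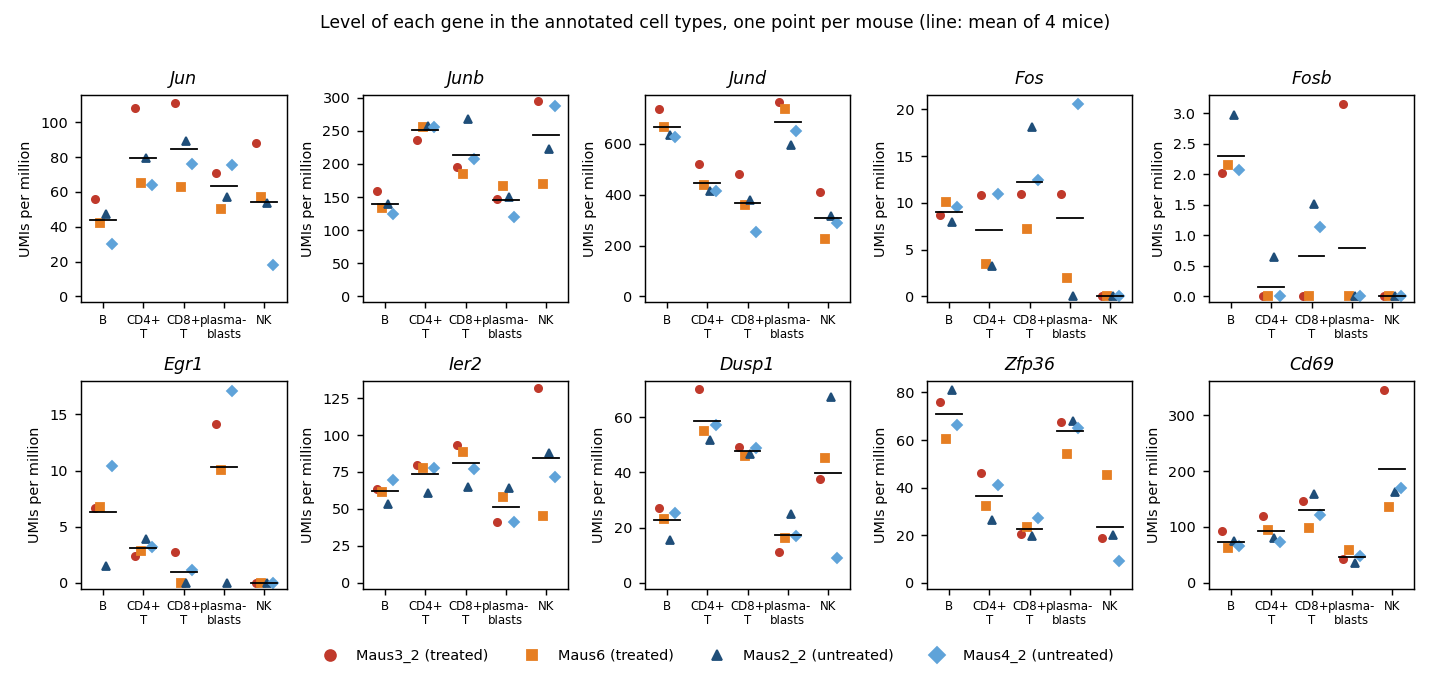
Level of each of the 10 genes in CPM (vertical axis, linear, 1 panel a gene) in the authors' 5 cell types, with 1 point a mouse, treated mice in red and orange, untreated mice in blue, and a line at the mean of 4 mice. Jund and Zfp36 are highest in B cells and plasmablasts, and Jun, Junb, Dusp1 and Cd69 are higher in T cells.

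Summed over both T cell types and over B cells with plasmablasts, 8 of the 10 genes had the same sign of difference in all 4 mice. The log2 ratio of the T cell to the B cell level was 1.34 ± 0.20 (SD, n = 4 mice) for Dusp1, 0.80 ± 0.17 for Jun, 0.77 ± 0.19 for Junb, 0.57 ± 0.06 for Cd69 and 0.32 ± 0.14 for Ier2. It was -0.68 ± 0.12 for Jund and -1.14 ± 0.38 for Zfp36. Fosb, with 3 UMIs in T cells, was also lower there in every mouse, but at 0 in both treated mice, so it has no ratio in them. Cd69 was the most even across mice, from 0.50 to 0.65, and Zfp36 ranged from -1.70 to -0.87. Fos averaged -0.09 ± 0.53, with both signs. Egr1 averaged -1.20 ± 1.52, and Maus2_2 alone was positive at 1.06, on 9 Egr1 UMIs in all its cells. These ratios describe annotated types that were themselves defined on the expression of these cells and carry no test.

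**Figure D2:**
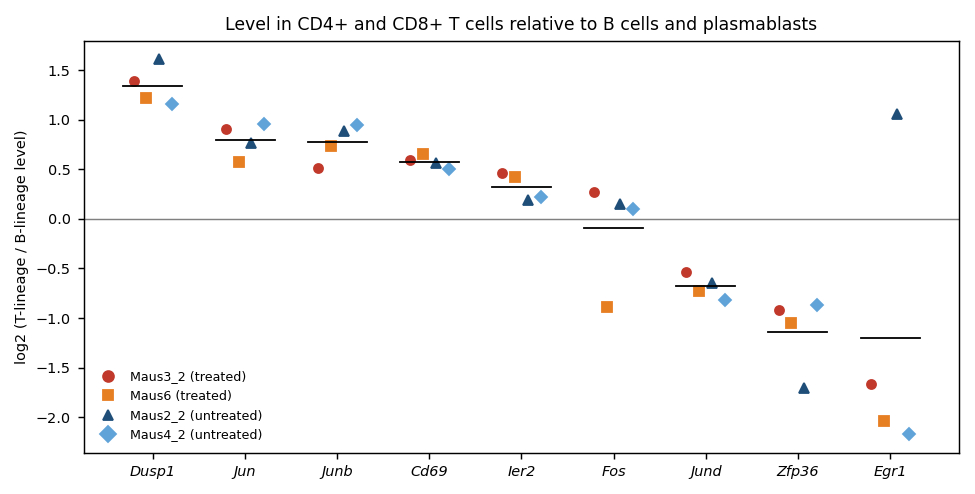
log2 ratio of the level in CD4+ and CD8+ T cells together to the level in B cells and plasmablasts together, 1 point a mouse for 9 genes (Fosb is left out for lack of UMIs), with a line at the mean of 4 mice. Dusp1, Jun, Junb, Cd69 and Ier2 lie above 0 in every mouse, and Jund and Zfp36 lie below 0 in every mouse.

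The authors' finer clusters divided these types further. Cluster 8, of 137 CD4+ cells and 7 others, had the highest Junb at 362 ± 77.7 CPM, the highest Dusp1 at 117 ± 37.5 and the highest Fos at 25.3 ± 23.1 (18 UMIs) over 4 mice. The next cluster for Dusp1, cluster 3 of CD4+ cells, was at 53.5 ± 12.2, and the lowest mouse of cluster 8, at 80.2, was above the highest of cluster 3, at 71.4. Cluster 10, of 80 B cells, had the highest Jund at 900 ± 149 over the 3 mice with at least 20 of its cells. Cluster 2, of B cells, was the highest for Fosb at 4.10 ± 1.91 and next after plasmablast cluster 6 (13.2 ± 10.2) for Egr1 at 11.4 ± 6.90. Clusters were made from these genes among others, so the values are descriptions.

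Over 43 sums of 1 cluster in 1 mouse, the pattern of each gene was compared with that of 2981 genes with a mean of at least 50 CPM. The sums share cell types and mice, so Pearson's r is a description without a test. The nearest patterns to Jund were Cd37 (r = 0.857), Erp29 and Cd79a (r = 0.855), the last a part of the B cell receptor. Zfp36 was nearest to Lgmn (r = 0.799), Syk and H2-Eb1, Dusp1 to Tnik (r = 0.837), Satb1 and Tmem50a, and Junb to Cyb5a (r = 0.793), Cd28 and Trbc1, the latter a T cell receptor chain. Cd69 was nearest to Klf6 (r = 0.735), Bin2 and Atxn1, and Jun to Ubr2 (r = 0.810), Hltf and Casc3. The nearest values were lower for Ier2 (Fkbp3, r = 0.620, then Tle5 and Rac1), Fos (Huwe1, r = 0.616, then Pip4k2a and Mapk1ip1l), Egr1 (Hnrnpa2b1, r = 0.598, then St6gal1 and Tbce) and Fosb (Sf1, r = 0.507, then Dipk1a and Rnf145). Between members r was 0.636 for Jund with Zfp36, 0.583 for Dusp1 with Junb, 0.564 for Ier2 with Junb, 0.031 for Fos with Jun and -0.676 for Jund with Dusp1. Of these 5 pairs, Ier2 with Junb was the one in which a member was among the 20 nearest of the other, at rank 16.

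Treatment was compared in the sums of each cell type per mouse with edgeR's quasi-likelihood test, 2 treated against 2 untreated mice. None of the 10 genes passed an adjusted p of 0.05 in any of 4 cell types or in all cells together, and DESeq2 and limma-voom also called 0 of them. The share of all tested genes called was 0% in B cells, 0% in CD4+ cells, 0.0294% in CD8+ cells (2 genes of 6798), 0.0186% in plasmablasts (1 of 5372) and 0% in all cells, where 460, 416, 574, 365 and 869 genes had an unadjusted p under 0.05. Within the 4 cell types 31 pairs of gene and cell type had enough UMIs to be tested, and in 22 of them the fold change was above 0, as it was for 50.4% to 51.1% of all tested genes. In 5 of them the unadjusted edgeR p was under 0.05, as 0 of 9 in B cells, 2 of 8 in CD4+ cells, 2 of 8 in CD8+ cells and 1 of 6 in plasmablasts. Over all tested genes the same counts were 460 of 9903, 416 of 8680, 574 of 6798 and 365 of 5372. Cells labelled NK cells were too few to test, with 13 to 22 per mouse.

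Jund, the constitutive subunit, was above 0 in every comparison. In B cells it stood at 735 and 666 CPM in treated Maus3_2 and Maus6 against 636 and 626 in untreated Maus2_2 and Maus4_2. The log2 fold change was 0.19 ± 0.09 (SE, unadjusted p = 0.0689, adjusted p = 0.934, edgeR). In CD4+ cells it stood at 521 and 439 against 416 and 415, a log2 fold change of 0.26 ± 0.10 (edgeR, adjusted p = 0.903). In plasmablasts it stood at 766 and 739 against 593 and 650, a log2 fold change of 0.31 ± 0.15 (edgeR, adjusted p = 0.735). Both treated mice were thus above both untreated mice in these 3 types, as were 14.5%, 13.3% and 16.6% of all tested genes. In CD8+ cells it stood at 483 and 361 against 378 and 255, so the groups overlapped. There the log2 fold change was 0.51 ± 0.15 (edgeR, unadjusted p = 0.00196, adjusted p = 0.491). It depended on 1 library, since without untreated Maus2_2 it was 0.83 ± 0.17 with an adjusted p of 0.00148 in edgeR, and its adjusted p ranged up to 0.9998 over the other alternatives. Over all cells Jund was at 641 and 556 against 514 and 495 (0.28 ± 0.09, edgeR adjusted p = 0.585), and 15.4% of all tested genes had both treated mice above. B cells and plasmablasts, which hold the most Jund, made up 65.3% and 64.5% of the cells of treated mice against 57.3% and 59.8%, and with equal cells per cluster the value over all cells was 0.20 ± 0.09 (edgeR adjusted p = 0.997). The 4 B cell markers moved the same way within types, at 4335 and 4407 against 3900 and 3979 CPM in B cells and at 8047 and 7456 against 6330 and 6754 in plasmablasts, and their part in the Jund values there was not tested. The sign was positive under 10 of 10 alternatives in each of these comparisons. Of the 9 clusters with at least 20 cells in every mouse, Jund had a higher mean in treated mice in 8, with log2 ratios from -0.11 in cluster 8 to 0.41 in cluster 4. Maus3_2 was the highest of the 4 mice in 16 of the 31 pairs, Maus6 in 3, Maus2_2 in 7 and Maus4_2 in 5. Mean UMIs per cell were 4654, 3930, 4687 and 3337 in these mice, near-equal in Maus3_2 and Maus2_2, and the part of depth in these differences was not tested.

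The other Jun and Fos genes had values on both sides of 0. Jun was at 108 and 65.4 CPM in CD4+ cells of treated mice against 79.7 and 63.8, a log2 fold change of 0.34 ± 0.21, and at 55.8 and 42.3 against 47.5 and 30.3 in B cells (0.39 ± 0.20). Maus3_2 was the highest mouse in each, and the groups overlapped. In CD8+ cells and plasmablasts its values were 0.12 ± 0.22 and -0.08 ± 0.33. Junb was at 236 and 255 against 257 and 256 in CD4+ cells and at 195 and 185 against 268 and 207 in CD8+ cells. In CPM, which are not TMM scaled, both treated mice were thus below both untreated mice in both T cell types. In CD4+ cells the nearest mice, Maus6 at 255 and Maus4_2 at 256, differed little. Their TMM factors were 0.968 and 1.017, so the order in CD4+ cells depends on the scaling. The share of all genes with both treated mice below was 21.9% in CD4+ cells and 26.1% in CD8+ cells. It was 20.2% in B cells, 20.1% in plasmablasts and 22.6% over all cells, where 0 tested members had that order. The log2 fold changes of Junb in CD4+ and CD8+ cells were -0.01 ± 0.10 and -0.22 ± 0.16, against 0.19 ± 0.12 in B cells and 0.25 ± 0.22 in plasmablasts. Fos in CD8+ cells was at 10.97 and 7.20 against 18.1 and 12.5, from 8 and 8 against 12 and 11 UMIs, a log2 fold change of -0.67 ± 0.52, and both treated mice were again the lower ones. In B cells it was 0.13 ± 0.32 and in CD4+ cells 0.11 ± 0.62. Fosb had too few UMIs for a test in any type, with 25 in B cells.

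Cd69 had the lowest unadjusted p of the members in CD4+ cells. It was at 120 and 94.6 CPM in treated Maus3_2 and Maus6 against 80.3 and 73.5 in untreated Maus2_2 and Maus4_2, so the groups were apart. The log2 fold change was 0.54 ± 0.14 (edgeR, unadjusted p = 0.00363, adjusted p = 0.903), and it was between 0.37 and 0.68 under 10 alternatives, with adjusted p from 0.2705 to 0.9999. In B cells Cd69 was at 92.3 and 61.7 against 75.3 and 65.9 (0.16 ± 0.16), in CD8+ cells at 147 and 98.1 against 159 and 120 (-0.11 ± 0.19) and in plasmablasts at 42.4 and 58.2 against 35.7 and 47.9 (0.28 ± 0.40). The groups overlapped in these 3 types. The difference in effect between CD4+ cells and B cells was 0.37 ± 0.18 on the log2 scale (edgeR interaction test over 10143 genes, unadjusted p = 0.05004, adjusted p = 1), a test that called 0.00986% of all genes.

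For Ier2, both treated mice were above both untreated mice in CD4+ and CD8+ T cells. It was at 79.6 and 78.0 against 60.9 and 77.4 CPM in CD4+ cells, where the nearest mice differed little, and at 93.2 and 88.2 against 65.0 and 77.3 in CD8+ cells. The log2 fold changes were 0.24 ± 0.15 and 0.43 ± 0.20 (edgeR adjusted p = 0.906 and 0.587), and 12.6% of all genes had both treated mice above in CD8+ cells. In B cells Ier2 was at 63.6 and 61.7 against 53.0 and 69.7 (0.06 ± 0.15). Dusp1, the phosphatase, was at 70.1 and 55.0 against 51.8 and 57.4 in CD4+ cells (0.25 ± 0.17), at 27.2 and 23.0 against 15.3 and 25.3 in B cells (0.32 ± 0.23) and at 49.4 and 45.9 against 46.9 and 48.9 in CD8+ cells (0.08 ± 0.25). Zfp36 was at 45.9 and 32.1 against 26.6 and 41.3 in CD4+ cells (0.27 ± 0.25) and at 76.1 and 60.4 against 81.2 and 66.4 in B cells (-0.07 ± 0.15). Groups overlapped for both genes in every type tested. Egr1 in B cells was at 6.65 and 6.75 against 1.49 and 10.4, from 23, 22, 3 and 25 UMIs, so the untreated mice spanned the treated ones (0.14 ± 0.53).

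The median log2 fold change of the tested members was 0.16 in B cells, 0.26 in CD4+ cells, 0.04 in CD8+ cells, 0.09 in plasmablasts and 0.14 in all cells. Over all tested genes the median was 0.00, 0.01, 0.01, 0.00 and 0.00. Of the members 8 of 9, 7 of 8, 4 of 8, 3 of 6 and 7 of 9 were above 0.

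**Figure D3:**
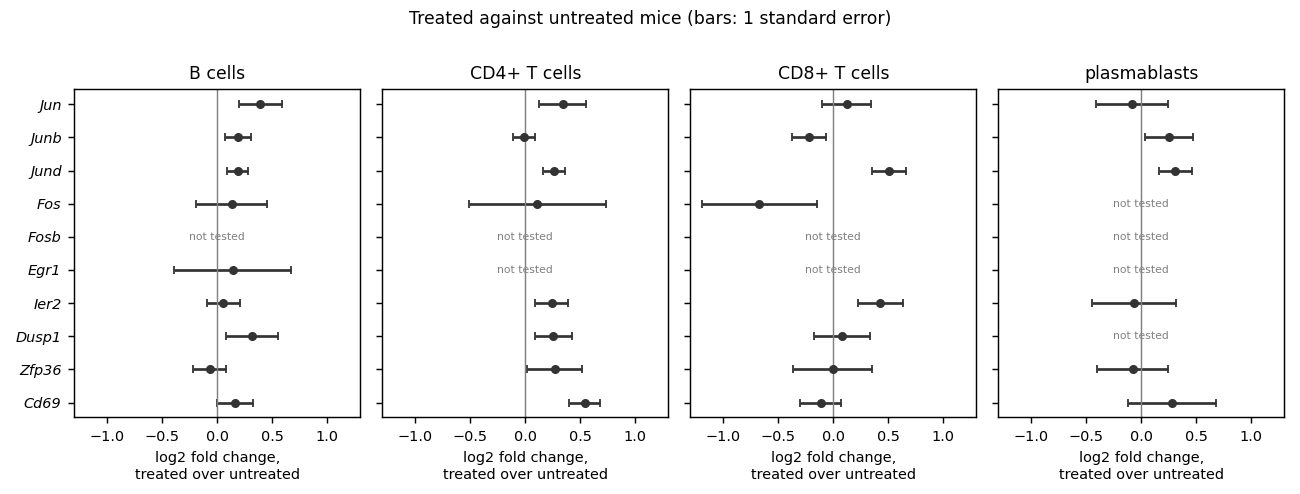
log2 fold change of treated over untreated mice for each gene in 4 cell types, with 1 standard error from edgeR as the bar and 2 mice a group. Jund lies above 0 in all 4 panels, Cd69 stands out in CD4+ cells at 0.54, and pairs with too few UMIs are marked as not tested.

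Other genes of the pathway were taken as 8 lists, and edgeR called 0 of their genes in either direction in each of the 5 comparisons. Of the 17 other AP-1 and basic leucine zipper partners, 16 were in the table, with 9 tested in B cells (3 above 0, 6 below) and 9 in CD4+ cells (3 above, 6 below). In CD8+ cells 7 were tested (3 above, 4 below) and in plasmablasts 4 (2 above, 2 below). Bach1, a repressor that competes for AP-1-like sites, was at 21.7 and 19.0 CPM against 34.2 and 26.5 in B cells (-0.53 ± 0.20), and its relative Bach2 at 852 and 911 against 978 and 1020 in CD4+ cells (-0.13 ± 0.09) and at 647 and 719 against 913 and 816 in CD8+ cells (-0.24 ± 0.12). Atf4, the stress response factor, was at 165 and 157 against 136 and 120 in plasmablasts (0.37 ± 0.22). Of 23 measured other immediate early genes, 19 were tested in B cells (13 above 0, 6 below) and 14 in CD4+ cells (11 above, 3 below). In CD8+ cells 11 were tested (5 above, 6 below) and in plasmablasts 13 (10 above, 3 below). Rhob, a small GTPase gene, was at 44.3 and 40.2 against 30.7 and 31.5 in B cells (0.47 ± 0.17) and at 14.7 and 14.9 against 11.7 and 4.51 in CD4+ cells (0.92 ± 0.41). Over all cells its value was 0.60 ± 0.14 (edgeR, unadjusted p = 0.000931, adjusted p = 0.327). Irf1 in CD8+ cells was 0.33 ± 0.20 and Klf6 in plasmablasts 0.62 ± 0.34.

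Among regulators upstream, 12 of 14 MAP kinase phosphatases and feedback inhibitors were in the table. In B cells 8 of 10 tested were above 0, in CD4+ cells 2 of 8, in CD8+ cells 3 of 7 and in plasmablasts 2 of 6. Dusp5, a phosphatase of ERK, was at 10.1 and 11.7 against 8.42 and 5.39 in B cells (0.71 ± 0.34), Dusp16 in CD4+ cells was -0.40 ± 0.25, Dusp10 in CD8+ cells 0.22 ± 0.17, Dusp6 in all cells 0.22 ± 0.13, and Spred1, an inhibitor of Ras signalling, -1.55 ± 0.59 in plasmablasts. Of the 12 serum response factor, ternary complex and CREB genes, 4 of 12 tested were above 0 in B cells, 3 of 10 in CD4+ cells, 1 of 8 in CD8+ cells and 3 of 8 in plasmablasts. The lowest p belonged to Crtc1, a CREB coactivator, in B cells (1.01 ± 0.38) and all cells (0.58 ± 0.26), Crem in CD4+ cells (-0.44 ± 0.23), Creb1 in CD8+ cells (-0.24 ± 0.19) and Mrtfa in plasmablasts (0.56 ± 0.34). Of the 17 kinases of the MAP kinase cascade, 7 were above 0 in B cells and in CD4+ cells, 10 of 16 in CD8+ cells and 5 of 14 in plasmablasts. Mapk9 in B cells was -0.47 ± 0.19, Rps6ka1 in CD4+ cells -0.30 ± 0.19 and in all cells -0.26 ± 0.13, Map2k2 in CD8+ cells 0.65 ± 0.24 and Braf in plasmablasts -0.57 ± 0.25. Of 9 proteins that bind AU-rich elements or act on poly(A), 4 were above 0 in B cells, 6 in CD4+ cells, 3 in CD8+ cells and 3 in plasmablasts. Named by lowest p, Tia1 was -0.21 ± 0.13 in B cells, Khsrp 0.23 ± 0.20 in CD4+ cells, Zfp36l1 -0.23 ± 0.19 in CD8+ cells, Cnot1 -0.41 ± 0.21 in plasmablasts and Pabpc1 -0.10 ± 0.08 in all cells.

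Of 12 other lymphocyte activation markers, 0 of 7 tested were above 0 in B cells, 3 of 10 in CD4+ cells, 2 of 5 in CD8+ cells and 1 of 5 in plasmablasts, with medians of -0.13, -0.32, -0.24 and -0.02. Myc and Nr4a1 were in this list and also among the other immediate early genes, so these lists overlap. Cd40lg, the helper ligand of CD4+ cells, was at 71.0 and 59.1 CPM against 93.3 and 84.5 in CD4+ cells (-0.39 ± 0.14, edgeR adjusted p = 0.903) and at -0.57 ± 0.17 in all cells. Cd44 was -0.19 ± 0.14 in B cells, Nfatc1 0.43 ± 0.29 in CD8+ cells and Irf4 -0.38 ± 0.31 in plasmablasts. The 4 genes around CD69 and the sphingosine 1-phosphate receptor were all above 0 in B cells, CD8+ cells and plasmablasts and 2 of 4 in CD4+ cells. Klf2, the factor that drives transcription of that receptor, was at 1028 and 871 against 779 and 751 in B cells (0.35 ± 0.10, edgeR adjusted p = 0.934), at 926 and 763 against 734 and 682 in CD4+ cells (0.30 ± 0.10) and at 1104 and 766.0 against 766.3 and 662.5 in CD8+ cells (0.47 ± 0.13, edgeR adjusted p = 0.483), where the groups overlapped. Over all cells it was 0.33 ± 0.10. Gnai2, a G protein subunit, was 0.46 ± 0.17 in plasmablasts.

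Single cells were then scored for how many of 6 inducible genes they held. The share of cells with at least 2 rises with the detection of each gene alone, and no expected share was computed. Jun, Fos, Fosb, Egr1, Ier2 and Dusp1 were scored in each cell after thinning to 2000 UMIs, which left out 23, 62, 12 and 179 cells of Maus3_2, Maus6, Maus2_2 and Maus4_2. In CD4+ cells 6.85% (27 of 394, 95% Wilson interval 4.75% to 9.79%) and 6.91% (27 of 391, 4.79% to 9.86%) of treated cells held at least 2 of these 6 genes, against 3.68% (11 of 299, 2.07% to 6.47%) and 4.09% (17 of 416, 2.57% to 6.45%) of untreated cells. The difference was 3.00 percentage points (exact permutation test over mice, two-sided p = 0.33, the smallest that 2 against 2 mice allow). The groups were not apart in the other settings. At 1000 UMIs per cell the difference was -0.60 points, from 6 and 3 treated against 7 and 5 untreated cells. With no thinning it was 7.29 points, of the same sign but with overlapping mice (26.3% and 17.3% against 18.6% and 10.5%). For at least 3 genes it was 0.10 points, from 1 and 2 against 1 and 1 cells. The counts at 1000 UMIs and for at least 3 genes are too few to decide whether the difference holds. In B cells the shares were 2.69% and 1.98% against 1.64% and 2.60%, in CD8+ cells 8.04% and 5.50% against 8.65% and 4.95%, and in plasmablasts 2.56% and 1.53% against 1.41% and 2.41%, all overlapping. Wilson intervals and the floors given here cover counting error only.

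**Figure D4:**
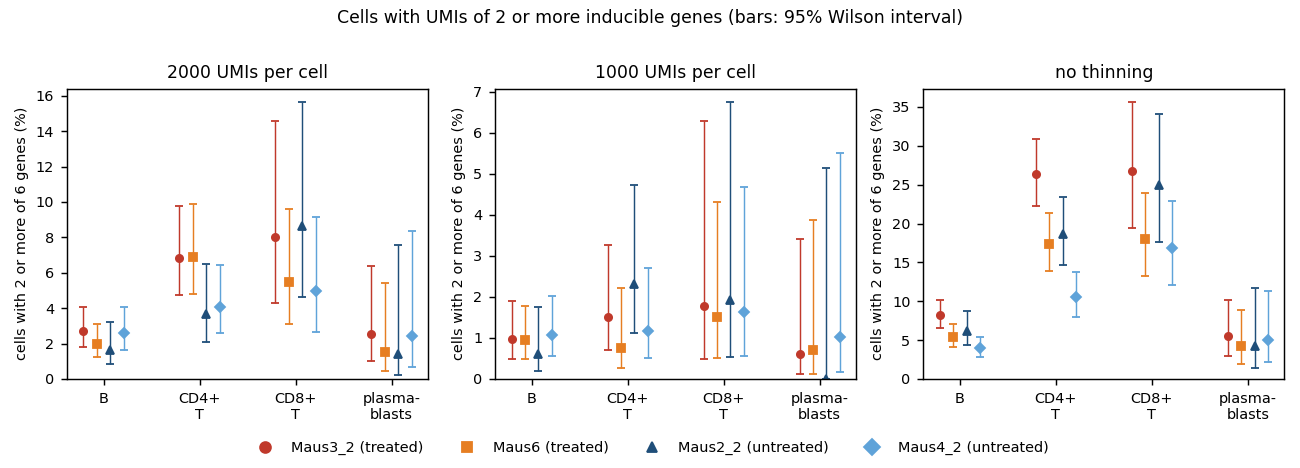
Share of cells (%, linear axes of different range) with UMIs of at least 2 of 6 inducible genes in 4 cell types, at 2000 UMIs per cell, at 1000 UMIs per cell and without thinning, 1 point a mouse with its 95% Wilson interval. In CD4+ cells the treated mice are above the untreated ones at 2000 UMIs and not at 1000 UMIs, where 3 to 7 cells per mouse were counted.

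Co-detection of pairs was measured as the number of cells with both genes over the number expected from the product of their shares in the same mouse and cell type, at 2000 UMIs and for pairs with at least 5 expected cells in each mouse. B cells had 13 such pairs with a median ratio of 1.07, CD4+ cells 11 with 1.07, CD8+ cells 7 with 1.09 and plasmablasts 3 with 1.10. In all 4 mice 3, 4, 1 and 1 of them were above 1, and no pair was below 1 in all 4. Among 24678, 15986, 5127 and 3598 pairs of a member with any other gene under the same limits, 6.47%, 5.99%, 5.21% and 7.78% were above 1 in all 4 mice. Pairs share genes, cells and clusters, so these shares are descriptions. Jun with Jund was above 1 in every mouse in 3 types, at 1.08 in B cells (1.04 to 1.18 over mice), 1.23 in CD4+ cells (1.17 to 1.32) and 1.29 in CD8+ cells (1.12 to 1.41). In CD4+ cells 121 cells held both against 98.1 expected. Jund with Cd69 was at 1.15 in B cells (1.11 to 1.22) and, in CD4+ cells, ran from 0.804 to 1.24 over mice, and Jund with Zfp36 at 1.06 in B cells (1.02 to 1.12). In CD4+ cells Jun with Junb was at 1.19 (1.03 to 1.47), Junb with Cd69 at 1.18 (1.05 to 1.27) and Junb with Jund at 1.07 (1.04 to 1.11). The pairs of Fos, Fosb and Egr1 had fewer than 5 expected cells in at least 1 mouse in every cell type and could not be read in this way.

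**Figure D5:**
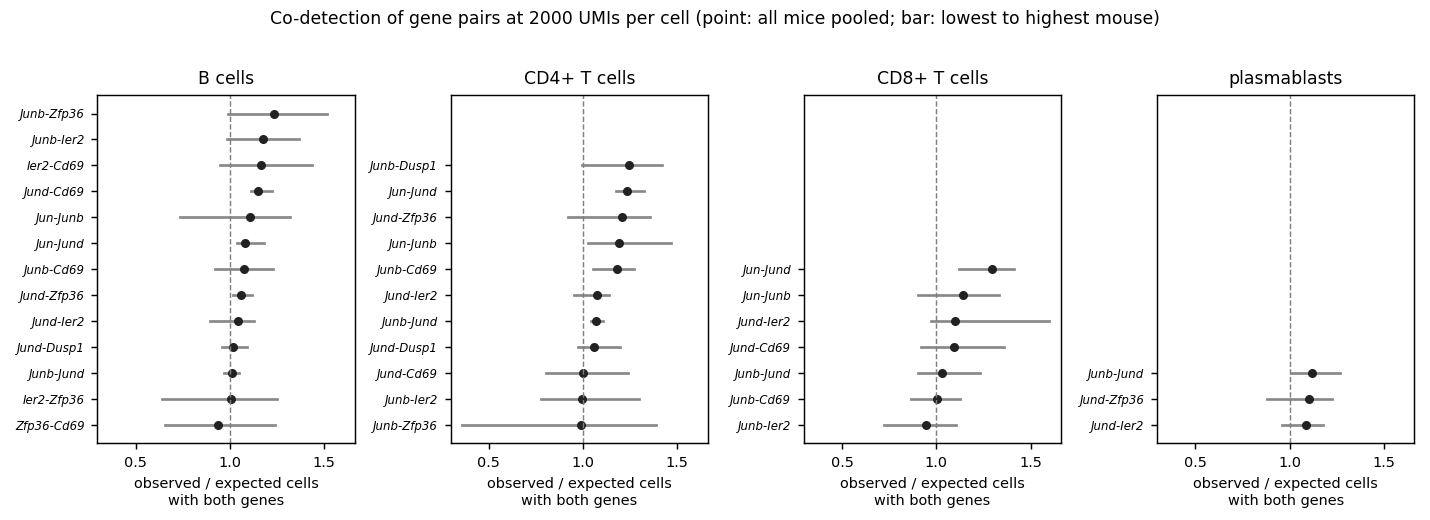
Observed over expected number of cells with both genes for each pair with at least 5 expected cells in every mouse, at 2000 UMIs per cell in 4 cell types, with a point for the mice pooled and a bar from the lowest to the highest mouse. Jun with Jund lies wholly above 1 in B cells, CD4+ cells and CD8+ cells.

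The 116 UMIs of Egr1 lay in 69 cells, and 9 cells with at least 3 UMIs held 43 of them, or 37.1%. A limit of 3 UMIs was set after the values were seen. Those 9 cells were 7 B cells and 2 plasmablasts, 3 each from treated Maus3_2, treated Maus6 and untreated Maus4_2, and 6 of them belonged to cluster 2. They held 20 UMIs of Junb (525 CPM), 12 of Ier2 (315), 10 of Zfp36 (263), 13 of Cd69 (341), 34 of Jund (893), 3 of Fos (78.8), 2 of Dusp1 (52.5), 2 of Jun (52.5) and 0 of Fosb. In the 3557 B cells and plasmablasts without Egr1 the levels were 138 CPM for Junb, 59.7 for Ier2, 68.2 for Zfp36, 69.1 for Cd69, 674 for Jund, 8.04 for Fos, 22.4 for Dusp1 and 46.3 for Jun, so Jun was close to its level without Egr1. The 38 B cells and plasmablasts with 1 or 2 Egr1 UMIs were in between for Junb (408), Ier2 (94.2), Zfp36 (126) and Cd69 (165), but not for Jund (1005), Jun (149), Fos (86.4) or Dusp1 (15.7). The in-between values rest on 52, 12, 16 and 21 UMIs. In the 9 cells, UMIs lay in 6 cells for Junb and for Ier2, 4 for Zfp36, 5 for Cd69 and 2 for Fos. The groups of cells were not matched for cluster. Mean UMIs per cell were 4230, 3567 and 3351 in the cells with at least 3, no and 1 or 2 Egr1 UMIs. The largest counts in 1 cell were 28 UMIs for Jund, 12 for Junb, 10 for Egr1 and for Cd69, 7 for Jun and 6 for Fos.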

How the data were processed

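Libraries of peripheral blood mononuclear cells from 4 mice were made with the 10x Genomics 3' droplet method. The authors aligned the reads to mm10 with Cell Ranger 7.1.0, used Seurat 4.3.0 for filtering, integration and clustering, and deposited raw UMI counts as whole numbers with a table of cell labels. The deposited cell table also gives each cell's UMI count, its number of genes and its mitochondrial percent. Ambient RNA and doublets were removed with SoupX and DoubletFinder according to the paper's methods, but the sources used here do not say whether the counts include the first step. Recomputed UMIs equalled those deposited in 5794 cells, and 0 columns of sample values were left unused. Cell types and clusters were the authors' own, and no doublet caller was run.

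Sums of counts over the cells of a type in 1 mouse were filtered with edgeR's default on low counts, scaled by TMM and tested with edgeR 4.0.16 (R 4.3.3, quasi-likelihood, Benjamini-Hochberg over all tested genes, threshold 0.05). The study's own cell-level test takes cells as replicates and was not used. A type needed at least 20 cells in every mouse. For pairs of genes and shares of cells, each cell was thinned to 2000 UMIs. Self-tests on generated data recovered the set folds. RLE scaling, DESeq2 1.42.0, limma-voom (limma 3.58.1), no filter, equal cells per mouse or per cluster, and leaving out each mouse were alternatives, and for shares and pairs 1000 UMIs, no thinning and a limit of 3 genes. Sequences came from RefSeq (GRCm38.p6) and GENCODE vM21, where 7 of the 10 promoters were matched and read.

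The 10 members, the other lists and the naming rule were chosen with earlier results of these data known. All members are named, with the gene of lowest unadjusted p in each other list and comparison and the 3 genes with the most similar pattern to each member.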

Additional observations from a re-analysis of the deposited data

How the results depend on the processing

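No paired analysis was made, because the 2 groups were different mice and the labels match no treated mouse with an untreated one. Of 399 member values under alternatives, 354 kept their sign and their side of the threshold, 44 changed sign, none of which was called, and 1 passed it, Jund in CD8+ cells without untreated replicate 1 (0.83), so that 0 to 1 members were called there when a mouse was left out. With equal cells per mouse the log2 fold change was -0.00647 for Ier2 and 0.0242 for Zfp36 in B cells, 0.27 for Zfp36 in CD8+ cells, 0.0564 for Jun, -0.19 for Junb, 0.00721 for Zfp36 and -0.0106 for Cd69 in plasmablasts, and 0.14 for Fos in all cells. With equal cells per cluster it was -0.0361 for Ier2 in B cells, 0.43 for Zfp36 and 0.0792 for Cd69 in CD8+ cells, 0.13 for Ier2 in plasmablasts, and 0.15 for Fos and -0.0656 for Zfp36 in all cells. Leaving out 1 mouse gave ranges that crossed 0. In B cells these were -0.00614 to 0.28 for Fos, -0.60 to 2.18 for Egr1, -0.13 to 0.28 for Ier2, -0.22 to 0.0694 for Zfp36 and -0.13 to 0.40 for Cd69. In CD4+ cells they were -0.0619 to 0.62 for Jun, -0.0893 to 0.0643 for Junb, -0.96 to 1.23 for Fos and -0.0148 to 0.62 for Zfp36, and in CD8+ cells -0.27 to 0.51 for Jun, -0.18 to 0.26 for Zfp36 and -0.38 to 0.16 for Cd69. In plasmablasts they were -0.33 to 0.12 for Jun, -0.38 to 0.30 for Ier2 and -0.23 to 0.0480 for Zfp36. In all cells they were -0.0705 to 0.47 for Jun, -0.11 to 0.0535 for Junb, -0.33 to 0.27 for Fos, -0.38 to 1.43 for Egr1, -0.0938 to 0.22 for Zfp36 and -0.0651 to 0.37 for Cd69. Genes called, over the whole table, were 0 in B cells, 0 in CD4+ cells, 2 in CD8+ cells, 1 in plasmablasts, 0 in all cells and 1 for the difference between CD4+ T and B cells. Without the filter on low counts they were 21, 11, 11, 13, 36 and 3. With equal cells per cluster they were 1 in B cells, 0 in CD8+ cells and 3 in plasmablasts, with DESeq2 0 in CD8+ cells, 0 in plasmablasts and 19 in all cells, and with limma-voom and with equal cells per mouse 1 in CD8+ cells. Leaving out a mouse gave 10 to 16 in B cells, 6 to 16 in CD8+ cells, 3 to 13 in plasmablasts, 3 to 41 in all cells and 1 to 4 for the difference. The lone mouse of a group was then assumed to vary like the others. For cells with at least 2 inducible genes, the treated minus untreated difference in points was 0.73 in all cells, with -0.12 at 1000 UMIs, 2.33 without thinning and -0.0415 for at least 3 genes. It was 1.72 in B cells without thinning, and -0.60, 7.29 and 0.10 in CD4+ cells under the same 3 settings. Over the same pairs, the median co-detection at 1000 UMIs was 1.17 in B cells, 1.29 in CD8+ cells and 1.02 in plasmablasts, where it was 1.03 without thinning. The cause of these changes was not tested. Depth limits Fos, Fosb and Egr1 most, with 206, 30 and 116 UMIs in all.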

Other observations

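The 73 cells labelled NK cells entered no test because Maus6 and both untreated mice had fewer than 20 of them. Per mouse there were 22 and 13 such cells in treated Maus3_2 and Maus6 and 19 each in untreated Maus2_2 and Maus4_2. Cd69, the early activation antigen, was at 346 and 136 CPM against 162 and 171, from 55, 12, 24 and 19 UMIs. Junb was at 295 and 170 against 222.2 and 287, and Jund at 409 and 227 against 316 and 287. Ier2 was at 132 and 45.4 against 87.5 and 71.8. In these 4 of the 7 genes detected in these cells, Maus3_2 was the highest and Maus6 the lowest of the 4 mice. The other 3 had another order. Zfp36 was at 18.9 and 45.4 against 20.2 and 8.98, from 3, 4, 3 and 1 UMIs, Dusp1 at 37.7 and 45.4 against 67.3 and 8.98, and Jun at 88.0 and 56.8 against 53.9 and 18.0. The median UMIs per cell of these cells were 7314 and 7114 against 8146 and 6016, and the part of the small cell numbers in this spread was not tested.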
